A study of Mus musculus with 2 samples.

Results

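The genes described here are 35 genes of sterol and fatty acid synthesis and of their control, of 32589 genes in the count files. They were named in advance as a list of symbols, with earlier results of the same 2 libraries in view, and had to reach 50 UMIs (unique molecular identifiers, each standing for 1 captured transcript). All 35 did, with the lowest total for Tm7sf2 (1115 UMIs in the control and 326 in the treated library) and the lowest count in the treated library for Fads2 (3521 and 235 UMIs). Because the list was drawn up with these ratios known, the ratios between the libraries are given as descriptions and support nothing by themselves. The list was divided into 21 genes of cholesterol synthesis and its control (the SREBP2 group), 9 genes of fatty acid synthesis and desaturation (the SREBP1 group), 4 genes of the LXR pathway (the LXR group) and Ch25h.

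The cells came from mouse tumours grown from MC38, a colon carcinoma line, taken 19 days after inoculation, and were sorted alive for CD45, the surface marker of leukocytes. Each group was 1 library made from 5 pooled biological replicates, a control group (Ctrl) and a group treated with an agent named BiDT, which the labels do not define further. An anti-TIM3 and interferon fusion protein is named in the title of the series. Both libraries carry the same batch label, and the sources used here give no host strain, age, dose or schedule. With 1 library of pooled animals per group no test between groups was possible, and every interval below is a 95% interval that covers counting error only. Differences between animals cannot be told apart from differences between groups.

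Cholesterol synthesis in mammalian cells is controlled by SREBP2, a transcription factor held in the endoplasmic reticulum until sterols run low, when SCAP escorts it to the Golgi for cleavage. INSIG proteins and oxysterols such as the product of Ch25h hold it back, whereas SREBP1 mainly drives fatty acid synthesis. LXR is a nuclear receptor activated by oxysterols and by late intermediates of the synthesis pathway, and it turns on genes of sterol export. In macrophages, interferon is known to induce Ch25h and to lower sterol synthesis, and both pathways have been tied to inflammation and antiviral defence.

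SREBP proteins bind sterol regulatory elements next to sites for the factors NF-Y and Sp1, and the promoters of the members were therefore searched for these letters. The promoters were RefSeq sequences of GRCm38.p6, from 250 bases before to 50 bases after each annotated start, 300 bases in all. The table held an entry for 17 of the 21 SREBP2 group genes, 6 of the 9 SREBP1 group genes and 3 of the 4 LXR group genes. The sequences below show the 1 SREBP2 group promoter with a full sterol element (Hmgcs1), 3 others with NF-Y boxes in different number and orientation (Hsd17b7, Idi1 and Cyp51), and that of Fads2, which had the lowest ratio of all members and neither motif. Each reads 5′ to 3′ on the strand of the gene, and capitals mark a sterol element (TCACNCCAC) or an NF-Y box (CCAAT, or ATTGG where it lies on the other strand).
Hmgcs1: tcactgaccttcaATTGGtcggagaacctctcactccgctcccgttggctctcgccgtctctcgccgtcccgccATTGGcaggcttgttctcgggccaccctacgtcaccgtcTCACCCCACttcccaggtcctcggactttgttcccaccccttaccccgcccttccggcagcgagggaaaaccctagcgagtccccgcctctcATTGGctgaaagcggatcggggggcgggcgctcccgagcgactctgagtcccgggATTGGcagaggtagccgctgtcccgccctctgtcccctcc
Hsd17b7: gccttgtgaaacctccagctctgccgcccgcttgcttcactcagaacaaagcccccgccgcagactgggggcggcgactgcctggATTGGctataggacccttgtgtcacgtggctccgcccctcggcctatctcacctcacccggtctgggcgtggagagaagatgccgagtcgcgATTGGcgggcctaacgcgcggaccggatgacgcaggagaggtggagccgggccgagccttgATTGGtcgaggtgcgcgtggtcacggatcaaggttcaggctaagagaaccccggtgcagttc
Idi1: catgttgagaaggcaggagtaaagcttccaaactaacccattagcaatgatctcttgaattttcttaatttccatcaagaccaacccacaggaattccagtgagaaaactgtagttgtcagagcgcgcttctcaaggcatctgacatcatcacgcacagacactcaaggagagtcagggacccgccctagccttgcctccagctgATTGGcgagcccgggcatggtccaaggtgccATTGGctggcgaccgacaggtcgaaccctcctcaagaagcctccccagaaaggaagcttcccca
Cyp51: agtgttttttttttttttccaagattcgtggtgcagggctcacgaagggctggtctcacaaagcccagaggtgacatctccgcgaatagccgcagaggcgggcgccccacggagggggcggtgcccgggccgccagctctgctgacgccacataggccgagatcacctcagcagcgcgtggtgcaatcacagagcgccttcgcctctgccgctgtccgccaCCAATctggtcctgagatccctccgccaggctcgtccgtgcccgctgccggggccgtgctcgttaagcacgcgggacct
Fads2: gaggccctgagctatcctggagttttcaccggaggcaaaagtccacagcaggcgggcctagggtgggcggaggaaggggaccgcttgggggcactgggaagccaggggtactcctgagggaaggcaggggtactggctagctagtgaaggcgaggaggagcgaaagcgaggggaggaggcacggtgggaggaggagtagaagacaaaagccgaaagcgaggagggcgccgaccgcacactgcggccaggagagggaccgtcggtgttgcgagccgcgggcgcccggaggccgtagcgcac
They lie at chr13:119690101-119690400 on the plus strand (Hmgcs1), chr1:169969156-169969455 on the minus strand (Hsd17b7), chr13:8885356-8885655 on the plus strand (Idi1), chr5:4104648-4104947 on the minus strand (Cyp51) and chr19:10101454-10101753 on the minus strand (Fads2).

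Searched on both strands, the NF-Y box CCAAT was present for 16 of 17 SREBP2 group genes (94.1%), where a gene counts if any of its listed promoters holds the box. It was present for 41.1% of the 27025 genes of the table and for 43.0% of the 11008 genes matched among those with at least 50 UMIs in the macrophage or monocyte cells described below. The Sp1 box GGGCGG was likewise present for 16 of 17 genes, against 38.2% and 65.3%. The sterol element TCACNCCAC stood in the promoter of 1 gene, Hmgcs1, at 137 bases before the start, against 1.44% of all genes of the table, and the shorter CACNCCAC, which the longer motif contains, in those of 3 (Hmgcs1, Insig1 and Acat2; 17.6% against 7.12%). In the SREBP1 group 3 of 6 genes had CCAAT and 3 had GGGCGG. An interferon element, here a pair of GAAA words 2 bases apart, was found for 1 SREBP2 group gene, Ebp (5.88% against 3.99%). The LXR element searched for, an exact pair of AGGTCA words 4 bases apart, was in none of the members with an entry. Only 0.0148% of all genes of the table had this exact pair, so its absence from so few promoters carries no information. Looser forms of the element were not searched for. These matches describe the letters in these windows and do not show that a factor binds there.

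Cells were assigned to types by marker genes counted after each cell had been thinned to 1000 UMIs, and the assigned sets are called gates here. The macrophage or monocyte gate held 15536 Ctrl and 13072 BiDT cells, which is 47.6% and 38.0% of filtered cells. All 11 of its marker genes were detected, at a summed level of 12989 CPM in Ctrl and 10629 CPM in BiDT, where CPM is the number of UMIs of a gene after scaling every gate to the same total. Summed markers of T cells stood at 47.4 and 116 CPM in this gate, of NK cells at 11.4 and 47.7 CPM, of neutrophils at 55.1 and 129 CPM, of dendritic cells (DC) at 68.1 and 46.7 CPM and of tumour or stromal cells at 38.8 and 34.2 CPM. The gated Ctrl cells were deeper, with medians of 4798.5 and 2683 UMIs, and cells with 2 or more UMIs of cycling markers made up 9.85% and 3.20%. Interferon genes (11 genes counted together) averaged 0.671 UMIs per thinned Ctrl cell and 6.31 per thinned BiDT cell. Over all filtered cells the medians were 4268 and 2670 UMIs, Malat1, a nuclear RNA, took a median of 0.335% and 0.717% of UMIs, and 713 barcodes occurred in both libraries.

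In the macrophage or monocyte gate nearly the whole cholesterol synthesis pathway was lower in the BiDT library. The summed level of the SREBP2 group was 979.9 CPM in Ctrl (974 to 986) and 328 CPM in BiDT (323 to 333), which is 2.99-fold lower. Of its 21 genes, 20 passed 1.5-fold on the lower side and 0 on the higher, with a median log2 ratio of BiDT over Ctrl of -1.64. Of all 14570 genes with at least 50 UMIs in this gate, 10.3% were at least 1.5 times lower and 20.1% at least 1.5 times higher, with a median of 0.10. Use of trimmed means (TMM scaling) in place of total UMIs shifts every log2 ratio of this gate by -0.11.

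The early steps, from acetyl-CoA to farnesyl diphosphate, were lower at every gene measured here. Acat2, which joins acetyl-CoA units in the cytosol, had 11.9 CPM in Ctrl but 3.65 CPM in BiDT (log2 -1.70), and Hmgcs1, the synthase that makes HMG-CoA, at 76.9 and 22.6 CPM (-1.76). The mevalonate kinase Mvk was at 16.1 and 7.66 CPM (-1.07), the phosphomevalonate kinase Pmvk at 66.0 and 26.9 CPM (-1.29) and the decarboxylase Mvd at 50.05 and 17.9 CPM (-1.48). The ratio was lowest at the end of this stretch, where isoprenoid units are made and joined. Idi1, the isopentenyl diphosphate isomerase, stood at 60.2 and 13.0 CPM (-2.22). Fdps, the farnesyl diphosphate synthase at the branch between sterols and other isoprenoids, was at 109.6 CPM in Ctrl but 13.4 CPM in BiDT. Its log2 ratio of -3.03 (-3.14 to -2.91) was the lowest in the SREBP2 group.

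The steps that commit carbon to sterols were lower too. The squalene synthase Fdft1 stood at 55.5 and 17.8 CPM (log2 -1.64). Fdft1 overlaps the protease gene Ctsb on the opposite strand in the GENCODE annotation of GRCm38, and Ctsb stood at 1103 CPM in Ctrl and 2679 CPM in BiDT. The sources used here do not say whether counting used the strand, so reads of Fdft1 and Ctsb cannot be told apart with certainty. Sqle, the squalene epoxidase and a rate-limiting step, was at 50.03 and 7.61 CPM (-2.72; -2.87 to -2.56), and the cyclase Lss, which makes lanosterol, at 9.37 and 1.98 CPM (-2.24). Every one of these genes had a lower level in BiDT by more than its counting interval.

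The enzymes that turn lanosterol into cholesterol were all lower, and at least 1.5 times lower with 1 exception. Cyp51, the lanosterol demethylase, stood at 87.9 and 19.4 CPM (log2 -2.18), and Hsd17b7, a ketosteroid reductase of the pathway, at 11.1 and 1.88 CPM (-2.56; -2.89 to -2.25). Next in the same stretch, the reductase Tm7sf2 had 6.45 and 2.82 CPM (-1.20), the oxidase Msmo1 63.1 and 22.2 CPM (-1.51) and the dehydrogenase Nsdhl 11.1 and 4.13 CPM (-1.42). The late enzymes Sc5d, a desaturase, and Dhcr7, a reductase, had log2 ratios of -1.65 and -1.64. Ebp, the sterol isomerase, was the exception, at 72.7 and 48.7 CPM (-0.58), just short of 1.5-fold. Cyp51 overlaps Akap9 on the opposite strand, whose level was 68.9 and 66.3 CPM, and Tm7sf2 overlaps Vps51 on the same strand, at 14.3 and 10.5 CPM.

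Among genes of control and transport, Srebf2 and Insig1 differed less than most of the enzymes. Srebf2, which encodes SREBP2 and is itself a target of it, was at 107.8 and 50.5 CPM (log2 -1.09). Insig1, which encodes a protein that retains SREBP in the endoplasmic reticulum and is also an SREBP target, stood at 51.1 and 25.8 CPM (-0.99). Stard4, a carrier of cholesterol between membranes, had 28.0 and 8.68 CPM (-1.69). All 3 were lower in BiDT, the inhibitor Insig1 included.

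**Figure D1:**
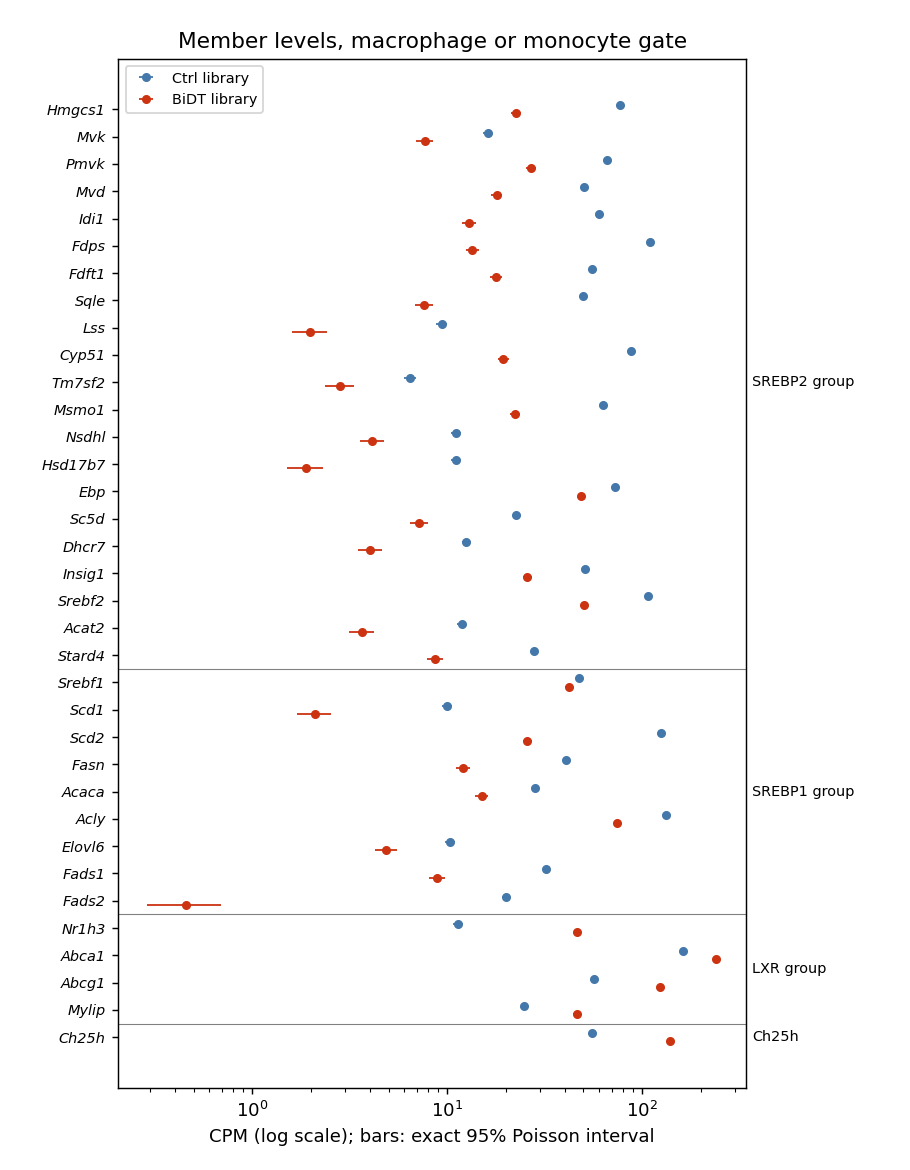
Level of each of the 35 genes in the macrophage or monocyte gate of the Ctrl library (blue) and the BiDT library (red), in CPM on a log axis, with exact 95% Poisson intervals (counting error only). All SREBP2 and SREBP1 group points of BiDT lie left of those of Ctrl, as with Fdps at 109.6 and 13.4 CPM, and all LXR group points and Ch25h lie to the right.

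The SREBP1 group was lower as well, most of all at its desaturases. Its summed level was 447 CPM in Ctrl and 186 CPM in BiDT, 8 of 9 genes passed 1.5-fold on the lower side and 0 on the higher, and the median log2 ratio was -1.76. Fads2, the enzyme that opens the synthesis of polyunsaturated fatty acids, had 2156 UMIs in Ctrl and 22 in BiDT, or 20.04 and 0.459 CPM, with a log2 ratio of -5.45 (-6.13 to -4.85). Its neighbour in that pathway, Fads1, stood at 32.1 and 8.87 CPM (-1.86). Scd2 and Scd1, which make monounsaturated fatty acids, differed alike, Scd2 with 124 and 25.8 CPM (-2.27) and Scd1 with 9.97 and 2.09 CPM (-2.26). Scd1 lay below 10% of its level in another gate in both libraries, which free RNA in the droplets can reach.

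The enzymes that build the fatty acid chain showed smaller differences. Fasn, the fatty acid synthase, stood at 40.8 and 12.02 CPM (log2 -1.76), the elongase Elovl6 at 10.3 and 4.86 CPM (-1.09), and Acaca, the acetyl-CoA carboxylase, at 28.2 and 15.0 CPM (-0.91). Acly, which supplies cytosolic acetyl-CoA, stood at 133 and 74.3 CPM (-0.84). Srebf1, which encodes SREBP1 and is also an LXR target, was the 1 gene short of 1.5-fold, at 47.6 and 42.2 CPM (-0.17). Srebf1 overlaps Rai1 on the opposite strand, at 17.9 and 25.8 CPM, so its reads have the same uncertainty of strand as those of Fdft1.

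The LXR group went the other way in the same cells. Its summed level was 254 CPM in Ctrl and 456.5 CPM in BiDT, 3 of 4 genes passed 1.5-fold on the higher side and 0 on the lower, and the median log2 ratio was 1.02. Nr1h3, which encodes LXR alpha, was at 11.4 and 46.5 CPM (log2 2.03; 1.93 to 2.13). The sterol exporter Abcg1 stood at 56.7 and 124 CPM (1.13), and Mylip, a ubiquitin ligase that limits sterol uptake, at 24.7 and 46.4 CPM (0.91). Abca1, the exporter that loads cholesterol onto apolipoproteins, was at 162 and 239.8 CPM (0.57), just short of 1.5-fold. Srebf1 and Scd1, which LXR can also induce, were not higher.

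Ch25h, whose product is an oxysterol that blocks SREBP processing and can activate LXR, was higher in the BiDT library. It stood at 55.1 CPM in Ctrl (53.7 to 56.5) and 139 CPM in BiDT (136 to 142), which gives a log2 ratio of 1.33 (1.28 to 1.39). The ratio was close to 0 among cells with no interferon gene UMI after thinning, where Ch25h stood at 56.6 and 59.8 CPM (log2 0.080), a comparison chosen after the data had been seen. That value pools subsets in unequal shares: among C1q-high macrophages with no interferon gene UMI, Ch25h was at 63.7 CPM in Ctrl (58.9 to 68.7; 1522 cells) and 131 CPM in BiDT (101 to 168; 134 cells).

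A further 30 genes of the pathway, listed with the members, showed which neighbours shared these differences. In the macrophage or monocyte gate all 30 reached 50 UMIs, 9 were at least 1.5 times lower and 3 higher, and their median log2 ratio was -0.04, so that the larger part of this list differed by less than 1.5-fold. Of all genes tested in this gate, 10.3% were lower and 20.1% higher. Among the lower genes, the sterol-binding protein gene Tmem97 had a log2 ratio of -1.70, the acetoacetate-activating enzyme gene Aacs -1.02, the phospholipid acyltransferase gene Lpcat3 -0.73, the lipid phosphatase gene Lpin1 -0.65 and the elongase gene Elovl5 -0.59. Gpr183, the receptor for an oxysterol made from the product of Ch25h, stood at 63.5 and 23.7 CPM (-1.42).

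The 3 higher genes of that list handle lipid uptake, lysosomal cholesterol or NADPH supply. Cd36, a scavenger receptor that takes up fatty acids and modified lipoproteins, stood at 54.2 and 138 CPM (log2 1.35). Npc2, which carries cholesterol out of the lysosome, stood at 1142 and 2180 CPM (0.93), and the malic enzyme gene Me1 at 0.781 and 1.29 CPM (0.73). Me1 lay below 10% of another gate in both libraries.

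The lower SREBP2 level was also seen per cell and at every depth. After thinning to 1000 UMIs, 48.4% of Ctrl cells in the macrophage or monocyte gate held at least 1 UMI of the SREBP2 group (47.6 to 49.2%) and 24.9% of BiDT cells (24.2 to 25.7%). Cells with 3 or more such UMIs made up 8.56% and 1.08%. With all UMIs kept, the shares with at least 1 UMI were 83.8% and 53.4%, at the unequal depths given above. No gated cell type is known to lack these genes, so no background share can be given.

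Grouped by UMIs per cell, the SREBP2 level was higher in deeper cells, with a wider range in Ctrl than in BiDT. It was 682 CPM in Ctrl and 297 CPM in BiDT among cells under 2000 UMIs, 746 and 342 CPM from 3000 to under 5000 UMIs, and 1164 and 355 CPM at 10000 UMIs or more. The LXR group moved the other way with depth, from 393 and 519 CPM in the shallowest cells to 220.3 and 418 CPM in the deepest. In each of the 5 depth ranges the SREBP2 level was lower and the LXR level higher in BiDT.

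**Figure D2:**
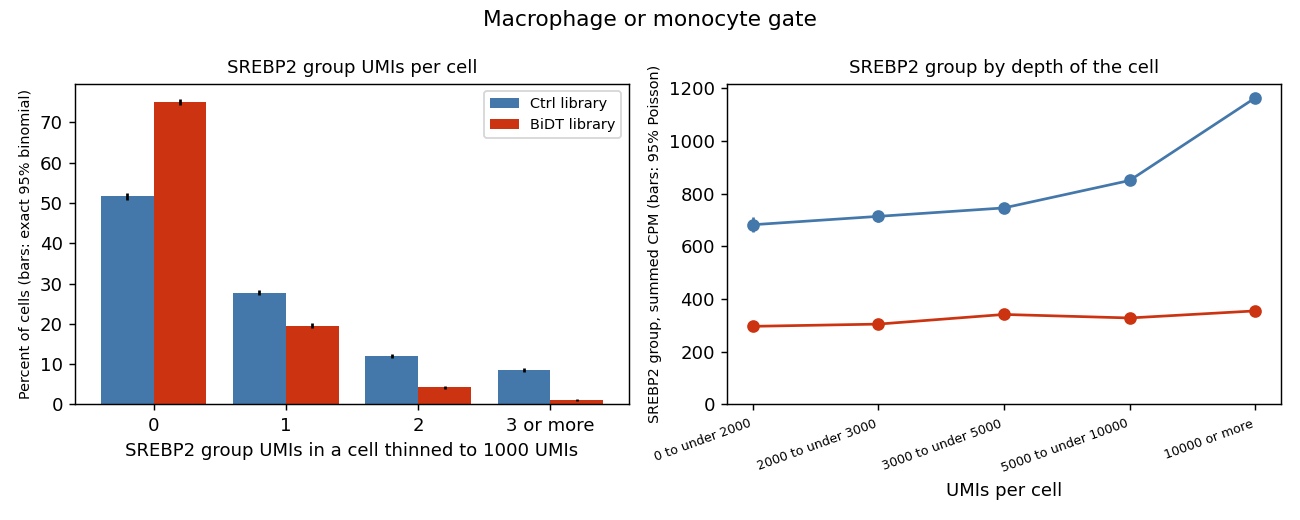
Left, share of macrophage or monocyte gate cells (percent, exact 95% binomial intervals) by number of SREBP2 group UMIs after thinning to 1000 UMIs; right, summed SREBP2 group level (CPM, exact 95% Poisson intervals) by UMIs per cell. Blue is Ctrl and red BiDT: cells with 3 or more UMIs of the group take 8.56% and 1.08%, and the red line stays between 297 and 355 CPM.

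Subsets of the gate, set by their own markers, all had a lower SREBP2 level in the BiDT library, by unequal amounts. The levels lay between 664 and 1525 CPM over the 7 subsets of Ctrl, and between 280.3 and 402 CPM over those of BiDT. The level was 4.77-fold lower in C1q-high cells with Mgl2, a lectin of alternatively activated macrophages, at 1525 CPM in Ctrl (814 cells) and 319.7 CPM in BiDT (112 cells). In the other C1q-high macrophages it was 1018 and 280.3 CPM (3.63-fold lower), and in cycling cells 1406 and 402 CPM (3.50-fold lower). Arg1 macrophages, the most numerous subset in both libraries with 6362 and 5001 cells, had 812 and 320.1 CPM (2.54-fold lower).

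The smallest difference was in Ly6c2 monocytes, the blood-derived precursors of tumour macrophages. Their SREBP2 level was 664 CPM in Ctrl (1845 cells) and 377 CPM in BiDT (2209 cells), which is 1.76-fold lower. Of their SREBP2 genes, 18 reached 50 UMIs and 13 were at least 1.5 times lower, beside 5.73% of all genes tested there. Cells with Retnla or Ear2 had 965 and 323 CPM, and the cells in no named subset 855 and 341 CPM. Median depth was 3980 UMIs in Ctrl and 3033 UMIs in BiDT for Ly6c2 monocytes. It was 7478.5 and 3173.5 UMIs for C1q-high cells with Mgl2 and 8118 and 2786.5 UMIs for cycling cells. The part of depth in the unequal ratios was not tested. Because subset markers such as Mgl2 and cycling genes themselves differed in number between the libraries, the make-up of the gate differed too: cycling cells took 9.85% of the Ctrl gate but 3.20% of the BiDT gate, and C1q-high cells with Mgl2 took 5.24% and 0.857%.

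The other groups varied by subset in their own ways. The SREBP1 level ranged from 241 to 645 CPM over the subsets of Ctrl and from 155 to 241 CPM over those of BiDT, with Ly6c2 monocytes again the closest pair at 241 and 184 CPM. The LXR level was higher in BiDT in all 7 subsets. The ratio was smallest in Ly6c2 monocytes, at 199.6 and 264 CPM (log2 0.40), and largest in C1q-high cells with Mgl2, at 151 and 431 CPM (1.52), ahead of the other C1q-high macrophages at 264 and 567 CPM (1.10). Ch25h was higher in 6 of the 7, most of all in level in C1q-high macrophages, at 62.7 and 240.4 CPM (log2 1.94). In Ly6c2 monocytes it was low in both libraries, at 5.81 and 29.2 CPM (2.33). Retnla cells were the exception, at 32.3 CPM (49 UMIs) and 19.3 CPM (27 UMIs), with a log2 ratio of -0.74 (-1.47 to -0.032).

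**Figure D3:**
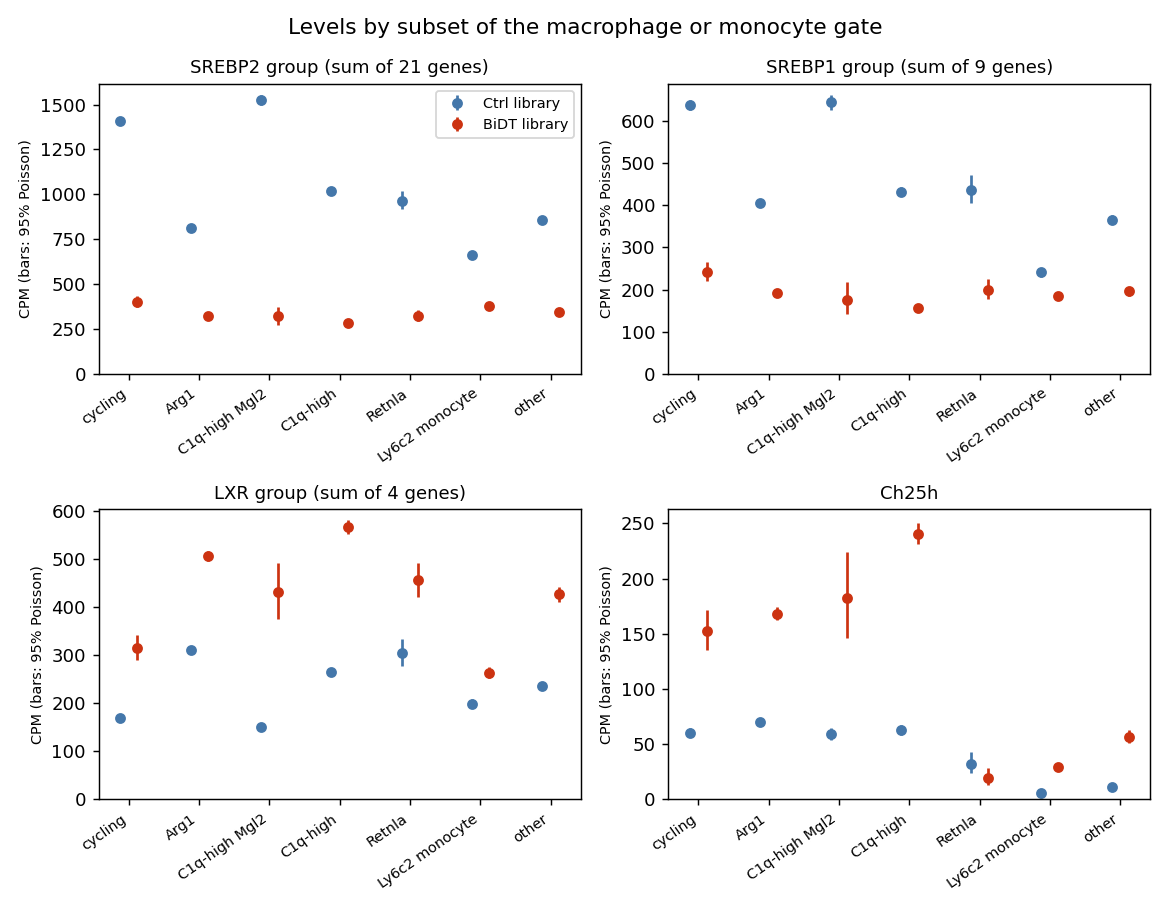
Summed level of the SREBP2, SREBP1 and LXR groups and level of Ch25h (CPM from 0, exact 95% Poisson intervals) in 7 subsets of the macrophage or monocyte gate, Ctrl in blue and BiDT in red. The red SREBP2 points lie between 280.3 and 402 CPM while the blue ones spread from 664 to 1525 CPM; Retnla cells are the 1 subset with a lower Ch25h point in BiDT.

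Within each library, cells of the whole gate with many interferon gene UMIs had lower SREBP2 levels than cells with few. In Ctrl the level was 1043 CPM in the 11087 cells with 0 interferon gene UMIs after thinning, 739 CPM at 2 UMIs and 496 CPM (436 to 561) in the 102 cells with 12 or more. In BiDT it was 357 CPM in the 1452 cells with 0 such UMIs, 379.9 CPM at 1 UMI and 275 CPM (264 to 287) in the 2137 cells with 12 or more. Over the whole gate, the BiDT cells with no interferon gene UMI (341 to 373 CPM) were thus below the Ctrl cells with the most. Median depth differed between these sets as well, at 5106 UMIs for Ctrl and 2608 UMIs for BiDT cells with 0 interferon gene UMIs. At 12 or more it was 3946.5 UMIs in Ctrl, lower than at 0, and 3012 UMIs in BiDT, higher than at 0. The part of depth in the result was not tested. The values also pool subsets in unequal shares. Cycling cells of Ctrl had 1419 CPM at 0 and 1611 CPM (1428 to 1810; 15 cells) at 3 to 4 UMIs, whereas Arg1 macrophages of Ctrl had 849 and 453 CPM. In Arg1 macrophages the order of BiDT cells with 0 below Ctrl cells with 12 or more held beyond the intervals. BiDT cells with 0 interferon gene UMIs had 332 CPM (312 to 353) and the 38 Ctrl cells with 12 or more 572 CPM (480 to 675). Cycling cells and Ly6c2 monocytes had the same order with overlapping intervals, from 1 and 34 Ctrl cells with 12 or more. For C1q-high cells with Mgl2 there was no Ctrl cell with 12 or more. C1q-high macrophages without Mgl2, Retnla cells and cells in no named subset had the reverse order with overlapping intervals. Their Ctrl cells with 12 or more numbered 6, 3 and 20.

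The LXR group and Ch25h followed the interferon count differently. The LXR level was 244 CPM in Ctrl and 466 CPM in BiDT at 0 interferon gene UMIs and 375 and 429 CPM at 12 or more. Over the whole gate it was thus higher with more interferon genes in Ctrl but not in BiDT. These values pool subsets in unequal shares. In BiDT, C1q-high macrophages without Mgl2 had 495 CPM (434 to 561) at 0 and 606 CPM (571 to 643) at 12 or more. Arg1 macrophages of BiDT had 524 and 501 CPM, and Ly6c2 monocytes 270 and 267 CPM. The other BiDT subsets were higher at 12 or more, with overlapping intervals. They had 342 and 625 CPM (C1q-high with Mgl2), 348 and 528 CPM (Retnla), 315 and 375 CPM (cycling) and 395 and 426 CPM (no named subset). Ly6c2 monocytes made up 126 of the 1452 BiDT cells at 0 and 763 of the 2137 at 12 or more. In Ctrl, Arg1 macrophages had 301 and 398 CPM and Ly6c2 monocytes 197 and 211 CPM. Ch25h in BiDT was at 59.8 CPM with 0 interferon gene UMIs, 114 CPM with 3 to 4 and 204 CPM with 12 or more. In Ctrl it was at 56.6 CPM, then 35.7 CPM with 2 UMIs, and 188 CPM (152 to 229) with 12 or more. At 12 or more UMIs the Ch25h intervals of the libraries overlapped over the whole gate. Of the 95 Ch25h UMIs behind this Ctrl value, 91 came from 38 Arg1 macrophages. In C1q-high macrophages without Mgl2, Ctrl had 0 Ch25h UMIs in 6 cells (0 to 115 CPM) and BiDT 317 CPM (292 to 344).

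**Figure D4:**
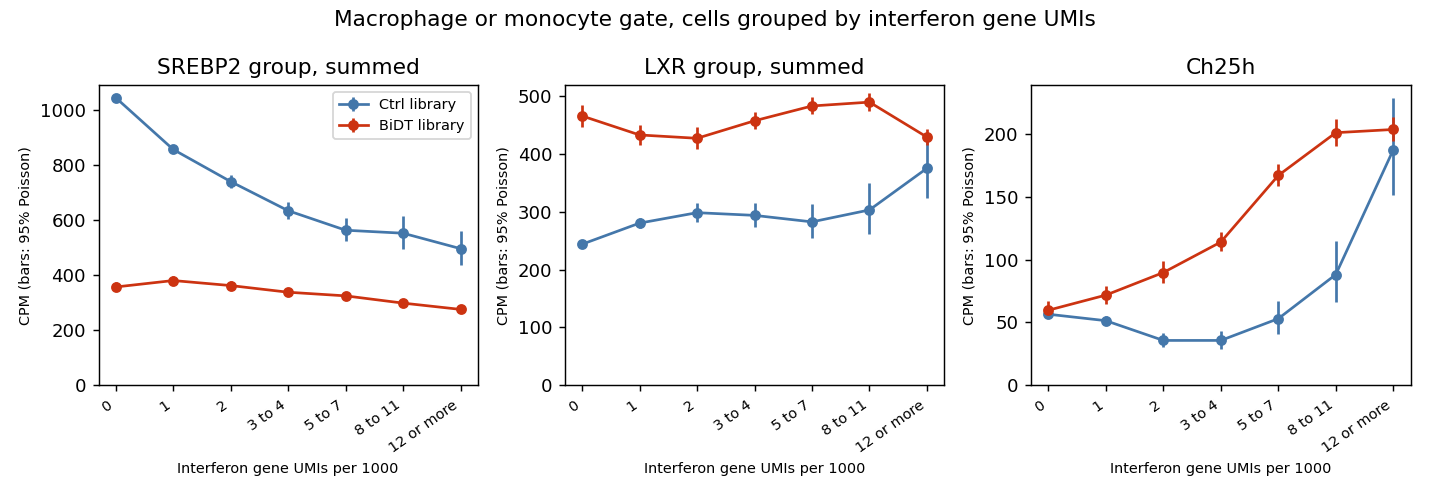
Summed level of the SREBP2 and LXR groups and level of Ch25h (CPM from 0, exact 95% Poisson intervals) in macrophage or monocyte gate cells grouped by UMIs of 11 interferon genes after thinning to 1000 UMIs, Ctrl in blue and BiDT in red. The SREBP2 lines stay apart, from 1043 and 357 CPM at 0 UMIs to 496 and 275 CPM at 12 or more, while the Ch25h lines start at 56.6 and 59.8 CPM.

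Over the whole gate, cells that themselves held a Ch25h UMI did not have the same SREBP2 pattern in both libraries. In Ctrl the 480 cells with a Ch25h UMI after thinning had 1286 CPM of the SREBP2 group (1253 to 1319) and the 15056 cells without one 967 CPM. In BiDT the 938 cells with a Ch25h UMI had 305 CPM (288 to 323) and the 12134 without one 329.9 CPM (325 to 335). Cells with such a UMI were deeper in both libraries, at medians of 6501.5 against 4765 UMIs in Ctrl and 3104.5 against 2656.5 UMIs in BiDT. The pattern also varied by subset. Arg1 macrophages with such a UMI had 1183 CPM and those without 793 CPM in Ctrl, and 334 CPM (308 to 361) and 319 CPM in BiDT. C1q-high macrophages without Mgl2 had 1305 CPM (1218 to 1397) with such a UMI and 1005 CPM without in Ctrl. In BiDT they had 258 CPM (232 to 285) and 284 CPM (273 to 296). In Ctrl, C1q-high cells with Mgl2 had 1434 CPM (1329 to 1546) with such a UMI and 1531 CPM without. Within Ly6c2 monocytes, where Ch25h was low, the SREBP2 level was 663 CPM in Ctrl and 377 CPM in BiDT among cells without a Ch25h UMI.

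DC, which present antigen to T cells, had a lower SREBP2 level too, by less than macrophages. The DC gate held 863 Ctrl and 401 BiDT cells, and the summed level was 1120 CPM in Ctrl and 608 CPM in BiDT (1.84-fold lower). Of 18 genes with at least 50 UMIs, 15 passed 1.5-fold on the lower side and 0 on the higher (median log2 -1.13). Of all genes tested in this gate 6.89% were lower and 13.7% higher. The lowest were Sqle at 47.0 and 10.1 CPM (log2 -2.22), Nsdhl at 9.89 and 2.16 CPM (-2.19; 48 and 3 UMIs; -4.52 to -0.56), Hsd17b7 at 12.2 and 3.61 CPM (-1.75), the SREBP1 group gene Scd2 at 55.4 and 16.6 CPM (-1.74) and Fdps at 118 and 36.8 CPM (-1.68). Srebf2, at 173 and 137 CPM (-0.33), and Ebp, at 38.9 and 42.5 CPM (0.13), differed by less than 1.5-fold. Thinning to 1000 UMIs, which leaves fewer genes above 50 UMIs, lowered the count from 15 to 6, and a minimum of 200 UMIs lowered it to 8.

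The fatty acid genes of DC differed less, and the LXR group was higher. Of 6 SREBP1 group genes that reached 50 UMIs, 2 were at least 1.5 times lower, Scd2 and Fasn, with a median log2 ratio of -0.31. Abca1 stood at 22.0 and 45.4 CPM (1.04), Abcg1 at 33.8 and 67.8 CPM (1.005) and Mylip at 19.8 and 31.0 CPM (0.65), so that all 3 measured LXR group genes were at least 1.5 times higher. Nr1h3 and Ch25h had only 12 and 47 UMIs over both libraries. In migratory DC, marked by Ccr7, the SREBP2 level was 1158 and 673 CPM, and in conventional DC 1003 and 495 CPM. Summed macrophage or monocyte markers in the DC gate stood at 1321 and 1361 CPM. In the conventional DC gate they were at 2231 and 2449 CPM, above its own DC markers at 2048 and 1986 CPM, and Retnla and Ear2 together were at 159 and 1251 CPM. In the migratory DC gate the macrophage or monocyte markers were at 1023 and 740.4 CPM beside DC markers at 10598 and 7995 CPM. Their part in the result was not tested.

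CD8 T cells showed much smaller differences. In the CD8 T gate (1422 and 2175 cells) the SREBP2 level was 621 CPM in Ctrl and 523 CPM in BiDT (1.19-fold lower), with 3 of 20 genes at least 1.5 times lower and 1 higher (median log2 -0.32). Of all genes tested there 5.13% were lower and 10.0% higher. Hsd17b7 stood at 11.4 and 5.10 CPM (-1.16), Fdps at 51.6 and 28.6 CPM (-0.85) and Nsdhl at 8.69 and 5.46 CPM (-0.67), followed by Scd2 (-0.58) and Dhcr7 (-0.55), which did not reach 1.5-fold. The count of lower genes was 5 with TMM scaling and 1 with a stricter gate, with a minimum of 200 UMIs or at 2-fold. Acat2 was higher, at 9.54 and 18.9 CPM (0.98; 0.54 to 1.45), whereas in macrophages, DC and tumour or stromal cells it was lower. Abcg1 (10.4 and 16.7 CPM, 0.69) and Ch25h (2.73 and 6.29 CPM, 1.21) were higher as well, but both lay below 10% of the highest gate, within reach of free RNA.

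Cycling cells were more frequent among CD8 T cells of BiDT, at 35.7% against 18.4% in Ctrl, the opposite of macrophages. Summed macrophage or monocyte markers in the CD8 T gate stood at 885 CPM in Ctrl and 576 CPM in BiDT. The part of either in the CD8 T values was not tested. The interferon genes averaged 0.143 UMIs per thinned CD8 T cell in Ctrl and 2.63 in BiDT.

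NK cells and neutrophils lay between CD8 T cells and macrophages. In the NK gate (294 and 1117 cells) the SREBP2 level was 638 and 413 CPM, and 9 of 16 genes were at least 1.5 times lower (median log2 -0.64), against 8.21% of all genes tested there. Fdps had the lowest ratio, at 67.1 and 19.5 CPM (-1.78). In the neutrophil gate (595 and 1255 cells), the level was 402 and 209.5 CPM, and 9 of 11 genes were lower (median -0.83), against 11.6% of all genes tested there. Fdps again had the lowest ratio, at 24.6 and 5.92 CPM (-2.05; 37 and 17 UMIs). Macrophage or monocyte markers were at 1246 and 1002 CPM in the NK gate, with those of Arg1 macrophages at 2511 and 3162 CPM, beside its own NK markers at 1769.8 and 1876 CPM. In the neutrophil gate the macrophage or monocyte markers were lower in BiDT together with the SREBP2 group, at 2519.6 and 1466 CPM. Markers of C1q-high macrophages were lower there too, at 320 and 181 CPM. Those of Arg1 macrophages were higher, at 4719 and 5743 CPM, as were those of Ly6c2 monocytes, at 1472 and 1630 CPM. The part of these markers in either result was not tested. Both counts depend on depth, since 1 gene was called in each gate after thinning and 1 with a minimum of 200 UMIs, and 4 in each at 2-fold. The neutrophil count was 4 without the 5% of cells with most UMIs and 16 with a minimum of 1 UMI, and the NK count was 4 with a stricter gate.

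Cells that carried markers of tumour or stroma also had lower sterol genes. This gate held 952 Ctrl and 593 BiDT cells, which a CD45 sort should remove, and its markers do not tell MC38 cells from fibroblasts. The SREBP2 level was 1387 CPM in Ctrl and 662 CPM in BiDT (2.10-fold lower), and 17 of 21 genes passed 1.5-fold on the lower side and 0 on the higher (median log2 -1.04), against 5.48% and 14.7% of all genes tested there. The count was 6 after thinning. Median depth in this gate was 10151 UMIs in Ctrl and 5102 UMIs in BiDT, and cycling cells made up 30.0% and 22.8%. Summed markers of Arg1 macrophages stood at 1551 and 1302 CPM, and macrophage or monocyte markers at 570 and 410 CPM. The part of each in the result was not tested. Fdps stood at 211 and 55.0 CPM (-1.94), Acat2 at 52.0 and 13.9 CPM (-1.90) and Mvd at 36.3 and 12.1 CPM (-1.59). Insig1 (56.2 and 51.5 CPM, -0.13) and Fasn (71.1 and 62.4 CPM, -0.19) differed little. In all 6 gates Fdps was at least 1.5 times lower in BiDT.

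**Figure D5:**
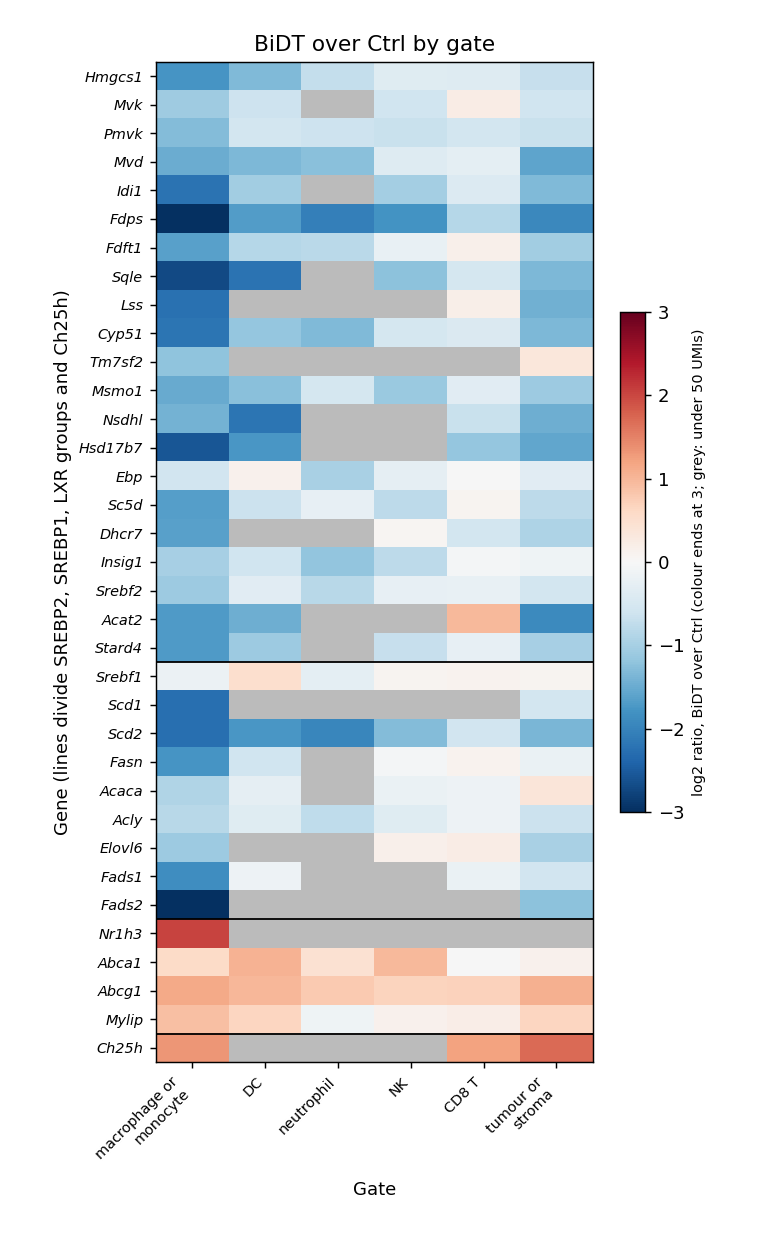
Log2 ratio of BiDT over Ctrl for the 35 genes (down) in 6 gates (across), blue for lower and red for higher in BiDT, with the colour scale ending at 3 in either direction and grey where a gene had under 50 UMIs in the gate. The blue block of SREBP2 and SREBP1 genes is deepest in the macrophage or monocyte column (median -1.64 for the SREBP2 group) and palest in the CD8 T column (-0.32).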

How the data were processed

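The authors deposited UMI counts for each gene in each barcode, not normalized. Cell Ranger 7.1.0 and GRCm39 are named per the submitters' processing notes, and a 10x Genomics 3' workflow per the labels' protocols, yet the barcodes are not of the form Cell Ranger writes, so neither step is certain. Which annotation was used: not given in the sources used here. Ctrl held 34310 barcodes with 211047063 UMIs and BiDT 34996 with 130313537.

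Filtered cells, 32607 and 34423, had 300 genes or more, 500 UMIs or more and a mitochondrial share of 10% or less. Each was thinned to 1000 UMIs (seed 11) and assigned by minimum marker counts (2 core UMIs for macrophages, T and NK cells, 4 for neutrophils, 3 or 2 for migratory or conventional DC) with at most 1 UMI of another lineage, which is the only treatment of doublets. These minima were set after the marker counts and gate sizes had been seen. Gates held 60.7% and 54.2% of filtered cells. A regulatory T gate (125 and 48 cells) was not described, and 1 of 12 listed interferon genes was not matched. Equal parts of the interferon count, chosen first, were replaced by fixed ranges, since 71.4% of Ctrl macrophages had 0.

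UMIs were summed per gate and given as CPM with exact Poisson intervals, and as log2 ratios with exact conditional binomial intervals, with no pseudocount. Genes with at least 50 UMIs in a gate were counted as higher or lower at 1.5-fold. Named genes are the 5 lowest and every 1.5-fold higher member in the macrophage, DC and CD8 T gates, pathway genes past 1.5-fold in the macrophage gate (some are not reported here), and all other members by role. The members and lists were chosen with earlier results of these data known. The estimates were tested on simulated counts. edgeR 4.0.16 gave TMM factors, and all else used scipy 1.17.1, pandas 2.3.3 and numpy 2.4.6 in Python 3.11.15.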

Additional observations from a re-analysis of the deposited data

Results flagged for a closer look

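Acat2, the cytosolic enzyme that joins acetyl-CoA units ahead of HMG-CoA synthesis, had log2 ratios of BiDT over Ctrl in opposite directions in different cells. The ratio was 0.98 in the CD8 T gate (56 UMIs in Ctrl and 159 in BiDT), and -1.70 in the macrophage or monocyte gate, -1.46 in the DC gate (48 and 5 UMIs) and -1.90 in the tumour or stroma gate. It drew attention because the ratio lies above 0 in 1 gate and below 0 in the other 3. With 1 library per group the difference was not tested.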

How the results depend on the processing

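No paired analysis was possible because each group is 1 library of pooled replicates. All alternatives listed at the outset were run, and no ratio past 1.5-fold changed sign. Below that size, the value for the SREBP1 group, median log2 ratio in CD8 T cells (-0.15), became 0.053 with gates from full counts and 0.065 with Malat1 at most 1%. That for the LXR group, median log2 ratio in CD8 T cells (0.20), became -0.086 with Malat1 at most 1%. Some single members under 1.5-fold in DC and CD8 T cells changed sign too. In the macrophage or monocyte gate the number of lower SREBP2 genes (20) was 19 to 21 over 15 alternatives, that of lower SREBP1 genes (8) 6 to 8, and that of higher LXR genes (3) 2 to 4. The SREBP2 median there ranged from -1.90 to -1.39. The Ch25h log2 ratio (1.33) was 1.23 with TMM scaling, 1.496 in thinned cells, 1.40 with a stricter gate and with Malat1 at most 1%, 1.49 without the 5% of cells with most UMIs, 1.46 with subsets weighted by their Ctrl shares, 1.47 in cells with at least 5 core marker UMIs and 0.080 in cells with 0 interferon gene UMIs, the last 2 chosen after seeing the data. Counts of lower SREBP2 genes fell in thinned cells to 6 in DC (from 15), 6 in tumour or stroma (from 17), 1 in neutrophils (from 9) and 1 in NK cells (from 9), and with a minimum of 200 UMIs to 8, 1 and 1 in DC, neutrophils and NK cells. The CD8 T count (3) was 5 with TMM scaling and 1 with a stricter gate, a minimum of 200 UMIs or 2-fold. Neutrophils had 4 without the 5% of cells with most UMIs, 16 with a minimum of 1 UMI and 4 at 2-fold, and NK cells 4 with a stricter gate and 4 at 2-fold. Thinning and higher minima leave fewer genes to count, and depth limits the smaller gates in this way. Of 780 comparisons for single members, 624 moved by less than their counting interval.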
